A study of Mus musculus with 4 samples.

Results

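The genes Nr4a1, Nr4a2, Nr4a3, Egr1, Egr2 and Egr3 encode transcription factors whose transcription is switched on within a short time of antigen receptor signalling in T cells. They were taken by symbol, and all 6 were found among the 32285 genes counted in every library. The cells came from gBT-I.CD45.1 transgenic mice, whose CD8+ T cells carry 1 T cell receptor specific for a herpes simplex virus glycoprotein B peptide. Spleen cells were activated with peptide-loaded B6 splenocytes and LPS and then grown in IL-2, so every group shares the peptide, the LPS and the cytokine. One culture of each of 2 mice received 0.5 mM sodium butyrate and the other received PBS from day 3, with day 5 given as the end of treatment. On day 6 living cells bearing CD8 and Vα2 were sorted and loaded for 10x 3′ v3.1 sequencing. There were therefore 2 butyrate libraries and 2 control libraries, all labelled as batch 1, and replicates 1 and 2 of each group came from the same pair of mice. All transcripts were measured in a transgenic population grown in culture, and the labels give no age or sex of the mice.

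The Nr4a proteins Nur77, Nurr1 and Nor1, encoded by Nr4a1, Nr4a2 and Nr4a3, are orphan nuclear receptors that can act without a ligand. In T cells their genes respond to calcium, calcineurin and NFAT, and in thymocytes Nr4a1 is also held down by MEF2 bound to class IIa deacetylases such as HDAC7. They are known for roles in negative selection, tolerance and the exhausted state of CD8+ T cells in tumours. The Egr proteins are zinc finger factors. The Egr1 gene responds mainly to ERK through Elk factors and SRF, which bind the serum response element. Egr2 and Egr3 are known for restraining T cells in anergy, and NAB1 and NAB2 are corepressors that bind Egr proteins. Butyrate is a short-chain fatty acid of gut bacteria that inhibits histone deacetylases.

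Promoter sequence was available in RefSeq (GRCm38.p6) for the 3 Nr4a genes and Egr2, as windows running from 250 bases before to 50 bases after a transcript start. They are shown because the 3 Nr4a windows hold the same short letters that CREB-type factors bind. Capitals mark matches on either strand to the cyclic AMP response element core TGACG, which reads CGTCA on the other strand, and to the other motifs named after the sequences.

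Nr4a1 (chr15:101266596-101266895, + strand): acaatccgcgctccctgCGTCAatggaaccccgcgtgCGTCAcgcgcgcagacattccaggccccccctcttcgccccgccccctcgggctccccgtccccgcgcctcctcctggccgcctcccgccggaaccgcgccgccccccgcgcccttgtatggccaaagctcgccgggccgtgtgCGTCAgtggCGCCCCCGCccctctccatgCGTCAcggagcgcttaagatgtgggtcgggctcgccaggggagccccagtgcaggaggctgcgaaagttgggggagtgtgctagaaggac
Nr4a2 (chr2:57123954-57124253, − strand): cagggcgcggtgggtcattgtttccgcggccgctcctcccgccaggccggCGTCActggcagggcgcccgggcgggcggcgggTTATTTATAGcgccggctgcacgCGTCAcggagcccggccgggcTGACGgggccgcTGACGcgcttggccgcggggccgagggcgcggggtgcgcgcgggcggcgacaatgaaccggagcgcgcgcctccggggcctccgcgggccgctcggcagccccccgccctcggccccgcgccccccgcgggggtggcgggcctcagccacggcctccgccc
Nr4a3 (chr4:48045055-48045354, + strand): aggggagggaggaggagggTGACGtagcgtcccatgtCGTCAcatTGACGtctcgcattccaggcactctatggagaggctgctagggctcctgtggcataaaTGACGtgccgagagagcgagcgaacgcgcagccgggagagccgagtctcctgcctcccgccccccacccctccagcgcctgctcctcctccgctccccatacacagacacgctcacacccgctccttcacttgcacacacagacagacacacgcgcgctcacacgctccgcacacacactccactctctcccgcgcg
Egr2 (chr10:67537619-67537918, + strand): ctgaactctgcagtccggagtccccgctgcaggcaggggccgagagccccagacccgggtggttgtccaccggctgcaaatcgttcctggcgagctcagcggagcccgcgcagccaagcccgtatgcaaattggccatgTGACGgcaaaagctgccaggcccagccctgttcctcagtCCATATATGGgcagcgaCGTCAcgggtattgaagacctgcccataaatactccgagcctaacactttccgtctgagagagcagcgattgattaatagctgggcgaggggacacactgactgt

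Each of the 3 Nr4a windows held 4 matches to TGACG, all upstream of the transcript start. Of 32851 promoter windows in the RefSeq table, 20.8% held at least 1 match and 0.231% held at least 4. In Nr4a1 the matches began at positions -233, -213, -69 and -40 from the transcript start, in Nr4a2 at -200, -144, -123 and -111, and in Nr4a3 at -231, -213, -205 and -147. The Nr4a1 window also held the EGR motif GCGGGGGCG on the other strand at -60, a motif in 2.91% of windows. The Nr4a2 window held a MEF2 site at -167, found in 3.19% of windows. Egr2 has 5 windows in the table, and the one printed is the third of them, the first that held both a CArG box, the core of the serum response element, and the TGACG core. Its CArG box lay at -72 between TGACG matches at -111 and -55. A CArG box was present in 1.63% of windows, and a CArG box with at least 2 TGACG matches in 0.067%. This cut and that of at least 4 TGACG matches equal what the printed windows held. The Egr2 window was also picked from 5 for holding both motifs. Neither share therefore measures how unusual these windows are. None of the windows read for these 4 genes held the full element TGACGTCA, the EGR motif GCGTGGGCG or the Nr4a motif AAAGGTCA, which occurred in 1.79%, 0.612% and 1.51% of windows. The full element contains the TGACG core on both strands, and no other pair of these motifs overlapped in the printed windows. These matches describe letters only, and no binding was measured.

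Library totals ranged from 64388093 to 76522004 UMIs, and 2560 and 2664 butyrate cells and 2059 and 2632 control cells were kept. The labelled cell type was seen in the markers, with a Cd8a or Cd8b1 UMI in 95.6 and 95.9% of butyrate cells and 95.8 and 94.6% of control cells. Median depth per cell was higher in butyrate, at 24816 and 23627.5 UMIs against 21793 and 20494 UMIs in control, and the median mitochondrial share was lower, at 3.93 and 4.13% against 4.89 and 4.91%. Between 1 and 6 cell barcodes were shared by any pair of libraries. Levels are given as CPM, from UMIs summed over the kept cells of a library and scaled by TMM, a method that sets the typical gene to no change. Because 1 UMI marks the 3′ end of 1 molecule, the CPM of different genes needs no division by transcript length. The p-values come from edgeR's quasi-likelihood test over all genes with Benjamini-Hochberg adjustment, and an adjusted p under 0.05 was called. With 2 cultures per group they draw on the spread pooled over genes, and they cannot be carried over to other mice.

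Butyrate-treated cells held more transcripts of all 3 Nr4a genes and of Egr2. Nr4a2 was 3.67-fold higher, Nr4a1 2.39-fold, Nr4a3 1.83-fold and Egr2 1.72-fold. Egr1, by far the most abundant member, did not pass the test, with a log2 fold change of 0.44. Egr3 did not pass either, at -0.40. In all, 4 of 6 members were called higher and 0 lower, and all 6 had passed the filter on low counts. At an unadjusted p under 0.05 the count lower was also 0 in edgeR, and DESeq2 likewise called none lower. Over all 13487 genes tested, 36.0% were called higher and 35.7% lower. Among the 2185 genes at levels like those of the members other than Egr1, 42.0% were called higher and 25.9% lower. The groups did not overlap for any of the 6 members, nor for 85.9% of all genes tested.

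**Figure D1:**
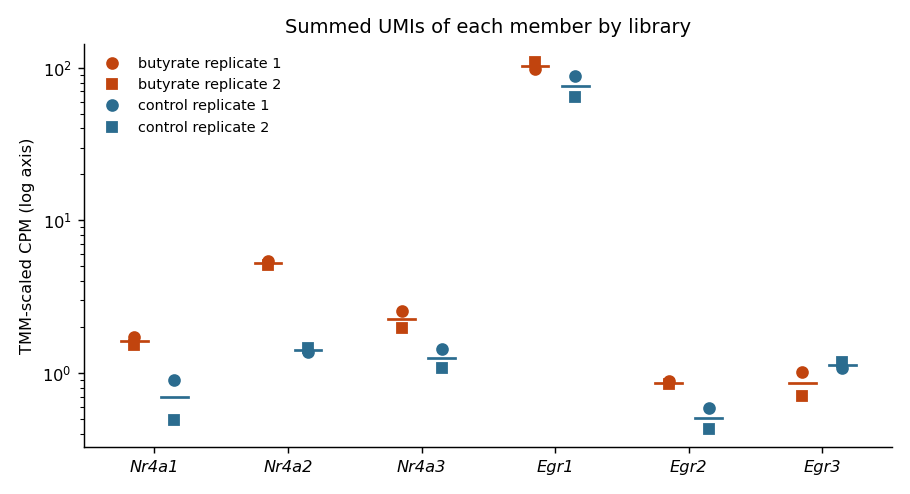
TMM-scaled CPM of each member in each library on a log axis, butyrate left of control, with circles for replicate 1, squares for replicate 2 and bars for the mean of 2 libraries. Egr1 lies between 63.9 and 109 CPM, the other members lie below 6 CPM, and Nr4a2 shows the widest gap between groups.

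Nr4a2, on chromosome 2 (GRCm38, 57106830 to 57124003, − strand), encodes Nurr1. It had 347 and 324 UMIs in butyrate, against 75 and 98 UMIs in control. Its levels were 5.39 and 5.06 CPM in butyrate and 1.38 and 1.46 CPM in control. Both butyrate libraries stood well above both control libraries, and the spread inside each group was small beside that gap. The means were 5.23 ± 0.234 CPM in butyrate and 1.42 ± 0.0572 CPM in control (SD, n = 2 each). The log2 fold change was 1.88 (SE 0.12, edgeR adjusted p = 2.85e-09). It was 1.97 within the pair of cultures of replicate 1 and 1.80 within that of replicate 2.

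Nr4a1, on chromosome 15 (101254269 to 101274795, + strand), encodes Nur77, which is widely used as a reporter of receptor signal strength. Its UMIs were 111 and 98 in butyrate and 49 and 33 in control. Its levels were 1.72 and 1.53 CPM in butyrate and 0.900 and 0.491 CPM in control. The control libraries differed from each other more than the butyrate libraries did. The means were 1.63 ± 0.137 CPM in butyrate and 0.695 ± 0.289 CPM in control (SD, n = 2 each), and the log2 fold change was 1.26 (SE 0.24, adjusted p = 0.000320 in edgeR). Within the pairs the log2 values were 0.94 for replicate 1 and 1.64 for replicate 2.

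Nr4a3, on chromosome 4 (48045153 to 48086447, + strand), encodes Nor1, which shares much of its function with Nur77 in T cells. It had 164 and 127 UMIs in butyrate and 78 and 72 UMIs in control. Its levels were 2.55 and 1.98 CPM in butyrate and 1.43 and 1.07 CPM in control. The lowest butyrate library was above the highest control library, though closer to it than for Nr4a2. The log2 fold change was 0.87 (SE 0.18, edgeR adjusted p = 0.000629), and the pairs gave 0.83 and 0.89. All 3 Nr4a genes kept their direction in every alternative in which they could be tested, 12 for Nr4a1, 13 for Nr4a2 and 12 for Nr4a3. They passed in each of these that used all 4 libraries, which refit the same cultures. Leaving out 1 library gave log2 fold changes of 0.85 to 1.72 for Nr4a1, 1.83 to 1.92 for Nr4a2 and 0.66 to 1.07 for Nr4a3.

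Egr1, on chromosome 18 (34859823 to 34864984, + strand), encodes the most abundant of these factors. It had 6295 and 6954 UMIs in butyrate and 4833 and 4296 UMIs in control. Its levels were 97.8 and 109 CPM in butyrate and 88.7 and 63.9 CPM in control. Butyrate replicate 1 and control replicate 1 lay close together, and control replicate 2 lay lowest. Scaled by library totals alone, the groups overlapped, at 91.2 and 101 CPM in butyrate and 94.5 and 68.9 CPM in control. The means were 103 ± 7.63 CPM in butyrate and 76.3 ± 17.6 CPM in control (SD, n = 2 each), and the log2 fold change of 0.44 (SE 0.23) did not pass (edgeR adjusted p = 0.220). The log2 difference was 0.14 within the pair of replicate 1 and 0.77 within that of replicate 2. The call differed between settings. Egr1 passed without control replicate 1, at 0.68 (edgeR adjusted p = 4.04e-07), and without control replicate 2, at 0.21 (edgeR adjusted p = 0.00441), where the lone control library was assumed to vary as the butyrate pair did. With all 4 libraries it also passed with every cell thinned to 8000 UMIs, at 0.55 (edgeR adjusted p = 0.0486), and in cells with no Mki67 and no Top2a UMI, at 0.68 (edgeR adjusted p = 7.97e-06). Its adjusted p ranged from 4.04e-07 to 0.536 over 13 alternatives.

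Egr2, on chromosome 10 (67535475 to 67542188, + strand), encodes a factor linked to anergy and to the control of T cell differentiation. It had 57 and 54 UMIs in butyrate and 32 and 29 UMIs in control, in sum the fewest of the 6 genes. Its levels were 0.886 and 0.843 CPM in butyrate and 0.588 and 0.431 CPM in control. The groups stood apart, but on few molecules. The log2 fold change was 0.78 (SE 0.24, edgeR adjusted p = 0.00931), with 0.59 and 0.97 within the pairs. The call was lost without butyrate replicate 1 (0.74, edgeR adjusted p = 0.0527), without control replicate 2 (0.55, edgeR adjusted p = 0.109), with cells thinned to 8000 UMIs (0.31, edgeR adjusted p = 0.504) and in DESeq2 (0.78, adjusted p = 0.119).

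Egr3, on chromosome 14 (70077203 to 70082614, + strand), encodes a close relative of Egr2. It had 65 and 45 UMIs in butyrate and 59 and 79 UMIs in control. Its levels were 1.01 and 0.703 CPM in butyrate and 1.08 and 1.18 CPM in control. Butyrate replicate 1 was just below control replicate 1. The log2 fold change of -0.40 (SE 0.22) did not pass (edgeR adjusted p = 0.108), with -0.10 and -0.74 within the pairs. It passed on the lower side without butyrate replicate 1, at -0.69 (edgeR adjusted p = 0.0399), and with library totals alone, at -0.60 (edgeR adjusted p = 0.0185). Under a mitochondrial limit of 5% the direction turned, at 0.16 (edgeR adjusted p = 0.705).

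In butyrate the order of levels was Egr1, Nr4a2, Nr4a3, Nr4a1, Egr2 and Egr3. The libraries of neighbouring genes in this order did not overlap, except for Egr2 and Egr3. In control the order was Egr1, Nr4a2, Nr4a3, Egr3, Nr4a1 and Egr2. There the libraries of Nr4a2 and Nr4a3 overlapped, as did those of Nr4a3 and Egr3 and those of Nr4a1 and Egr2.

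**Figure D2:**
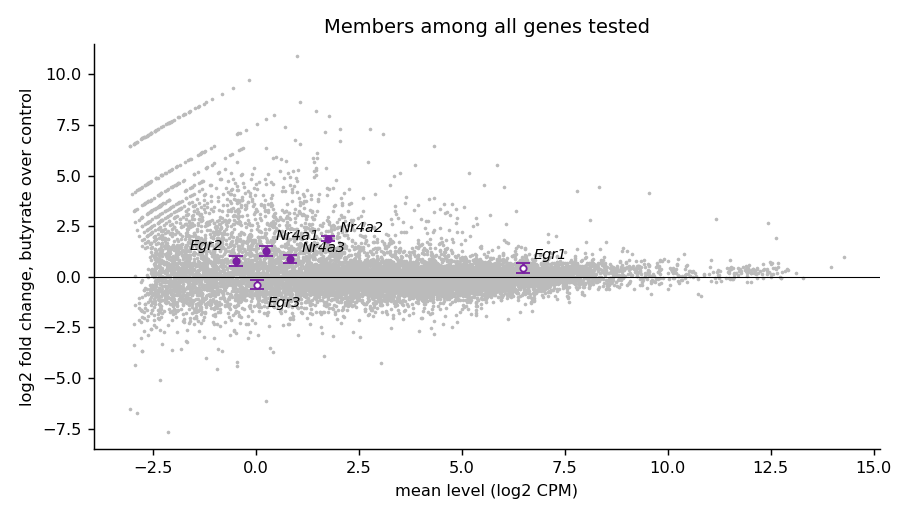
Log2 fold change of butyrate over control against the mean level in log2 CPM for all 13487 genes tested (grey) and the 6 members (purple, bars for ± SE), filled where the adjusted p was under 0.05 and open where it was not. Nr4a2 at 1.88 is the highest member, Egr1 and Egr3 are open, and the fitted values of grey genes with almost no control UMIs, the diagonal lines at upper left, depend on the prior count.

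The share of cells with a transcript was compared after each kept cell had been thinned at random to 8000 UMIs, which leaves out shallower cells, 54 and 68 in butyrate and 71 and 112 in control. A Nr4a2 UMI was found in 4.07% (exact 95% interval 3.33 to 4.92) and 4.08% (3.35 to 4.92) of butyrate cells. In control it was found in 1.16% (0.735 to 1.73) and 1.15% (0.772 to 1.65) of cells. The 2 libraries of a group were almost equal, and the intervals of the groups did not meet. These intervals cover counting error only. The difference was 2.92 points, and the exact permutation test over libraries (two-sided) gave p = 0.33, which is as small as 2 libraries against 2 can give (0.4995 adjusted over the 6 members). Without thinning a Nr4a2 UMI was found in 10.9 and 10.5% of butyrate cells and 3.45 and 3.495% of control cells.

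A Nr4a1 UMI was found in 1.64 and 1.54% of thinned butyrate cells and 0.805 and 0.397% of control cells. Nr4a3 was found in 1.92 and 1.89% of butyrate cells and 1.26 and 0.635% of control cells. Both shares were higher in each butyrate library than in each control library, by means of 0.988 and 0.955 points (exact permutation p = 0.33 for each). At least 1 of the 3 Nr4a genes was detected in 7.34 and 7.28% of butyrate cells and 3.02 and 2.14% of control cells. Nearly all of these cells held a single UMI, with a mean of 1.07 and 1.06 Nr4a2 UMIs per positive cell in butyrate and 1.00 and 1.03 in control. At this depth a cell without a UMI cannot be told from a cell without the transcript.

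**Figure D3:**
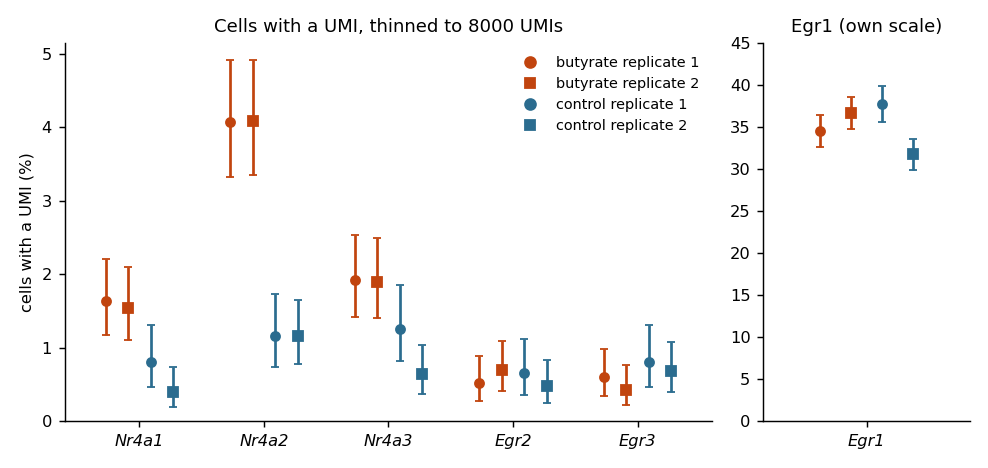
Percentage of cells with at least 1 UMI of each member after thinning to 8000 UMIs per cell, butyrate left of control, with exact 95% binomial intervals. Nr4a2 stands at 4.07 and 4.08% in butyrate and 1.16 and 1.15% in control, while the libraries of the 2 groups interleave for Egr1 and Egr2.

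Egr1 was found in a far larger share of cells than the other 5 members. Its UMIs were present in 34.5 and 36.6% of thinned butyrate cells and 37.7 and 31.7% of control cells. The groups overlapped, and the difference of 0.864 points had an exact permutation p of 1. It was -3.20 points within the pair of replicate 1 and 4.93 within that of replicate 2. What differed more was the upper end. Cells with 5 or more Egr1 UMIs made up 4.55 and 6.01% of butyrate cells and 3.47 and 2.06% of control cells. Positive cells held a mean of 2.502 and 2.64 UMIs in butyrate and 2.15 and 1.96 in control. The groups did not overlap in either of these measures, which were chosen after the values had been seen and were not tested.

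Egr2 was found in 0.519 and 0.693% of thinned butyrate cells and 0.654 and 0.476% of control cells, with overlapping groups (exact permutation p = 0.667). Egr3 was found in 0.599 and 0.424% of butyrate cells and 0.805 and 0.675% of control cells (exact permutation p = 0.33). No cell type that should lack these genes was present to serve as a background. In its place, barcodes of 1 to 100 UMIs, which hold mostly free RNA, were read. Nr4a2 stood there at 3.95 and 3.78 CPM in butyrate (20 and 15 UMIs) and 1.07 and 1.09 CPM in control (5 and 6 UMIs), below its levels in cells before TMM scaling, 5.03 and 4.73 CPM in butyrate and 1.47 and 1.57 CPM in control. Nr4a3, at 1.58 and 1.76 CPM there in butyrate and 0.643 and 0.724 CPM in control, was also below its levels in cells in each library, 2.38 and 1.85 CPM in butyrate and 1.53 and 1.15 CPM in control. Egr1 and Egr3 were likewise lower there than in cells in each library, with only 0 to 4 UMIs for Egr3.

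Nr4a1 was different. It stood at 2.17 and 1.51 CPM in these barcodes in butyrate (11 and 6 UMIs) and 1.07 and 0.724 CPM in control (5 and 4 UMIs). In cells on the same scale it was at 1.61 and 1.43 CPM in butyrate and 0.958 and 0.529 CPM in control. Its level in cells was thus below that in the barcodes of 1 to 100 UMIs in all 4 libraries, though on few UMIs, so the share of cells with a Nr4a1 UMI is not read as a share of cells that express it. Egr2 was at 1.19 and 0.252 CPM there in butyrate (6 and 1 UMIs) and 0.429 and 0.724 CPM in control (2 and 4 UMIs), above its level in cells of 0.826 CPM in butyrate replicate 1 and of 0.465 CPM in control replicate 2, and its shares of cells are not read as expression either. The part of free RNA in the member levels and shares was not tested.

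Egr3 differed from the other low members in how its transcripts were spread. Without thinning, only 23 and 34 butyrate cells and 32 and 34 control cells held an Egr3 UMI. Cells with 3 or more Egr3 UMIs numbered 8 and 2 in butyrate and 5 and 8 in control, and they held 72.3 and 17.8% of its UMIs in butyrate and 47.5 and 63.3% in control. One control cell held 17. Nr4a2 had 8 and 8 such cells in butyrate and 1 and 0 in control, holding 8.36 and 7.72% of its UMIs in butyrate and 4 and 0% in control. In butyrate replicate 1 and both control libraries, 5 to 8 cells thus held between 47.5 and 72.3% of the Egr3 UMIs. Leaving out 1 library moved its log2 fold change between -0.69 and -0.16.

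Some of the few Egr3-positive thinned cells also held Ccl4, the chemokine gene whose transcription follows receptor signals. A Ccl4 UMI was found in 10 of 15 and 2 of 11 such cells in butyrate and in 5 of 16 and 5 of 17 in control. Among the other cells Ccl4 was found in 15.1 and 17.6% in butyrate and 1.42 and 1.44% in control. Butyrate replicate 2 showed no such excess. Nr4a3 was found in 6 of 15 and 2 of 11 Egr3-positive cells in butyrate and in 3 of 16 and 2 of 17 in control, against 1.69 and 1.82% of other butyrate cells and 1.12 and 0.559% of other control cells.

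Over single cells, the genes most alike to each member were ranked by the mean of the Pearson correlation of log2(1 + UMIs) over the 4 libraries. Cells within a library share depth and culture, and in counts this sparse a weak correlation is a description only. For Egr1 they were Ier2 (0.235), Junb (0.197) and Btg2 (0.162), all immediate early genes. An Ier2 UMI was found in 66.4 and 69.5% of Egr1-positive butyrate cells and 66.0 and 61.6% of Egr1-positive control cells, against 49.8 and 52.2% of other butyrate cells and 50.4 and 50.03% of other control cells. Ccl4 ranked first for Egr3 (0.291), Nr4a3 (0.105), Nr4a2 (0.099) and Egr2 (0.098). The correlation of Egr3 with Ccl4 was 0.283 and 0.046 in butyrate and 0.491 and 0.343 in control. That of Egr2 with Ccl4 was 0.013 and 0.028 in butyrate and 0.263 and 0.089 in control, so its mean rests largely on control replicate 1. Havcr2, which encodes the inhibitory receptor TIM-3, was the last of the 3 genes nearest to Nr4a2 (0.051). Its correlation with Nr4a2 was 0.023 and 0.054 in butyrate and 0.110 and 0.016 in control, highest in control replicate 1. The granzyme genes Gzmd and Gzme were next after Ccl4 for Nr4a3. The ranking took genes of at least 20 CPM, and among these the gene nearest to Nr4a1 was Pla2g12a, at 0.047. The low member Egr3 had a mean correlation of 0.072 with Nr4a1, at 0.108 and -0.0080 in butyrate and 0.192 and -0.0046 in control. Between members, the highest mean was 0.158, for Nr4a3 with Egr3, while Nr4a1 with Nr4a2 gave 0.010. Cells with 2 or more members made up 3.39 and 3.39% of thinned butyrate cells and 1.71 and 1.51% of control cells. This share also rises when a single member is found in more cells. In butyrate an Egr UMI was found in 38.6 and 39.7% of cells with a Nr4a UMI and 34.8 and 37.1% of cells without. In control these shares were 38.3 and 42.6% with a Nr4a UMI and 38.3 and 31.9% without.

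Egr1 was also read in cells with a UMI of Tcf7, whose product maintains stem-like and memory T cells. This split was chosen after values had been seen, so no test is given. Tcf7 itself was lower in butyrate, and cells with its UMI numbered 141 and 145 in butyrate and 366 and 436 in control. Among them, 48.9% (exact 95% interval 40.4 to 57.5) and 45.5% (37.2 to 54.0) of butyrate cells and 23.8% (19.5 to 28.5) and 24.8% (20.8 to 29.1) of control cells held an Egr1 UMI. In the cells without a Tcf7 UMI the shares were 33.6 and 36.1% in butyrate and 40.8 and 33.2% in control. In butyrate the share was thus higher in the cells with a Tcf7 UMI, and in control it was lower there. Egr1 levels were 208 and 179 CPM in butyrate and 65.6 and 61.2 CPM in control in the cells with a Tcf7 UMI. In the other cells they were 111 and 127 CPM in butyrate and 102 and 75.3 CPM in control. The fitted log2 difference between the 2 butyrate effects was 1.17, with 1.55 and 0.79 for the 2 pairs of cultures, and 0.58 without thinning. The other members had at most 9 UMIs per library in cells with a Tcf7 UMI.

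**Figure D4:**
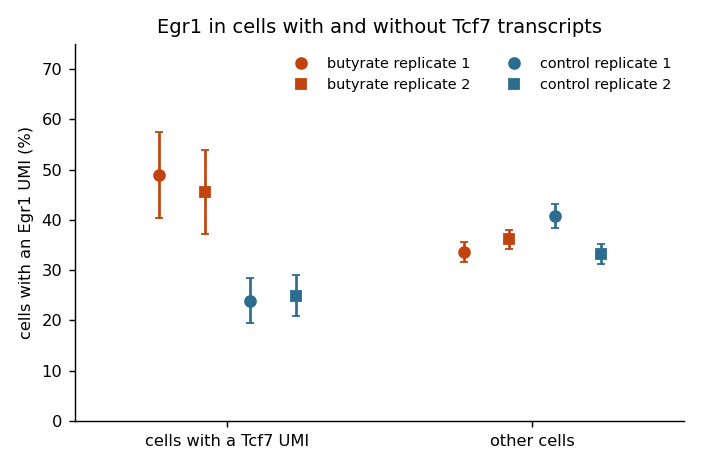
Percentage of thinned cells with an Egr1 UMI among cells with a Tcf7 UMI and among the other cells, butyrate left of control, with exact 95% binomial intervals. Among cells with a Tcf7 UMI the butyrate libraries lie at 48.9 and 45.5% and the control libraries at 23.8 and 24.8%, while among the other cells the groups interleave.

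The genes around the members were counted by list, and each count is to be read against the 36.0% of all genes tested that rose and the 35.7% that fell. Genes of the ERK, SRF and MEF2 list mostly fell. Besides genes that carry these signals, the list holds class IIa deacetylases, which act with MEF2 in repression, and genes of CREB-type factors. Its counts therefore do not give a direction of the signal itself. Of 19 tested, 2 rose and 14 fell, with a median log2 fold change of -0.30 against -0.0079 for all genes. With library totals alone the median of all genes itself was -0.21, and 0 rose. Elk4, an ERK-responsive partner of SRF, was at 10.0 and 10.3 CPM in butyrate and 39.2 and 37.7 CPM in control (-1.92 on the log2 scale, SE 0.06, edgeR adjusted p = 5.85e-13). Srf itself fell by 1.17 (SE 0.08, edgeR adjusted p = 2.71e-09), at 5.53 and 6.01 CPM in butyrate and 13.3 and 12.6 CPM in control. Among the class IIa deacetylases that act with MEF2, Hdac5 fell by 0.88 and Hdac7 by 0.62 on the log2 scale (edgeR adjusted p = 7.34e-09 and 1.40e-07). Mef2d, which pairs with them in T cells, was at 29.7 and 31.8 CPM in butyrate and 32.4 and 31.0 CPM in control (edgeR adjusted p = 0.468).

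Of 14 calcineurin and NFAT genes tested, 6 rose and 5 fell, near the shares over all genes (36.0% and 35.7%), with a median of 0.11. With library totals alone 3 rose. Nfatc2 rose by 0.67 (SE 0.05, edgeR adjusted p = 7.73e-09) and Nfatc3 fell by 0.61 (SE 0.04, edgeR adjusted p = 8.39e-09). Orai1, the calcium channel subunit, rose by 0.60, and the calcineurin subunit gene Ppp3cb fell by 0.56 (edgeR adjusted p = 4.35e-08 and 3.74e-08). Nfatc1 was at 36.9 and 40.1 CPM in butyrate and 35.4 and 35.9 CPM in control (edgeR adjusted p = 0.0714).

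Among partners and corepressors of the 2 families, 1 of 7 tested genes rose and 3 fell, with a median of -0.17. Nab2, the Egr corepressor that Egr factors themselves induce, fell by 0.35 (SE 0.06, edgeR adjusted p = 0.000187). Its relative Nab1 was at 34.4 and 37.2 CPM in butyrate and 34.2 and 32.9 CPM in control (edgeR adjusted p = 0.124). The nuclear receptor corepressor gene Ncor1 fell by 0.76 (SE 0.04, edgeR adjusted p = 3.60e-10), at 100.02 and 102 CPM in butyrate and 172 and 171 CPM in control. Rcor1, whose product takes part in repression by Nr4a2 in mouse microglia, fell by 0.17 (edgeR adjusted p = 0.00439). Rxra, whose product dimerises with Nr4a1 and Nr4a2, had 34 and 22 UMIs in butyrate and 26 and 39 UMIs in control (edgeR adjusted p = 0.384).

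Other early response genes mostly rose with the Nr4a genes. Of 42 tested, 28 rose and 7 fell, with a median of 0.56. With library totals alone 11 fell. Dusp2, a phosphatase that dampens ERK, stood at 212 and 206 CPM in butyrate and 65.5 and 62.8 CPM in control, higher by 1.70 (SE 0.04, edgeR adjusted p = 1.60e-13). Gadd45b rose by 1.41, Irf8 by 1.12, Dusp5 by 1.07, Myc by 1.07, Fos by 0.97 and Junb by 0.45, and all of these passed. Cd69, the early activation antigen often read alongside Nr4a1, fell by 0.27 (SE 0.06, edgeR adjusted p = 0.000890), at 43.7 and 48.6 CPM in butyrate and 58.0 and 53.6 CPM in control. It therefore went against the direction of the Nr4a genes in these libraries. The other genes of the list that fell were named after their values were seen. Their log2 fold changes were -1.76 for Fosb, -1.16 for Zfp36, -1.02 for Tnfaip3, -0.81 for Zfp36l1, -0.68 for Btg2 and -0.49 for Jun.

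Genes linked to Egr2 and Egr3 in anergic T cells gave 10 that rose and 5 that fell of 18 tested, with a median of 0.40, where 36.0% of all genes rose and 35.7% fell. Nrgn, which encodes a calmodulin-binding protein, rose by 2.17, and the semaphorin gene Sema7a by 3.91, the latter with 234 and 244 UMIs in butyrate and 14 and 16 UMIs in control (edgeR adjusted p = 1.21e-12 and 1.59e-10). Spry1, an inhibitor of ERK signalling, rose by 1.53 (edgeR adjusted p = 2.74e-08), and Tnfrsf9, which encodes 4-1BB, by 0.43 (edgeR adjusted p = 1.42e-06). The ubiquitin ligase gene Itch fell by 0.62 (edgeR adjusted p = 1.67e-08). The other genes of the list that fell were named after their values were seen. Their log2 fold changes were -1.89 for Bcl6, -1.08 for Ndrg1, -0.52 for Dgka and -0.50 for Dgkz. Bcl6 rested on 8 and 17 UMIs in butyrate and 44 and 44 UMIs in control. Lag3 had 31.8 and 32.2 CPM in butyrate and 43.2 and 33.1 CPM in control (edgeR adjusted p = 0.240).

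Of 14 genes linked to Nr4a factors in exhausted CD8+ T cells, 8 rose and 5 fell, with a median of 0.54, where 36.0% of all genes rose and 35.7% fell. The 5 that fell, named after their values were seen, were Ikzf2, Runx1, Tox, Cd38 and Bcl2. On the log2 scale Ikzf2 fell by 1.11, Runx1 fell by 0.74, Tox fell by 0.67, Cd38 fell by 0.42 and Bcl2 fell by 0.28. Tox, which encodes a factor of the exhausted state, was at 1.12 and 1.03 CPM in butyrate and 1.69 and 1.74 CPM in control (edgeR adjusted p = 0.00230). Havcr2 stood at 51.5 and 52.8 CPM in butyrate and 10.1 and 12.5 CPM in control, higher by 2.20 (SE 0.08, edgeR adjusted p = 1.72e-08). Pdcd1, which encodes PD-1, rose by 0.92, Entpd1, which encodes CD39, by 0.89 and Runx3 by 0.58 (edgeR adjusted p = 8.64e-10, 2.53e-09 and 7.10e-08). Tox2, named after its values were seen, had 46 and 43 UMIs in butyrate and 0 and 0 UMIs in control, at least 28.1-fold higher taking 3 counts over both control libraries together as the floor. The median of the list was also 0.54 with Tox2 at that bound. All these lists were chosen with results of these libraries known, and no list was tested as a set.

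**Figure D5:**
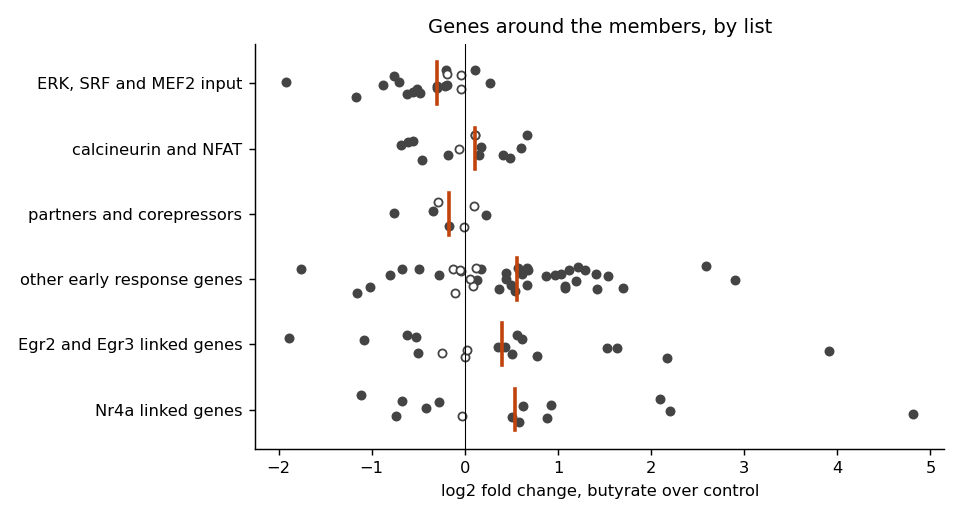
Log2 fold change of butyrate over control for each tested gene of 6 lists, filled where the adjusted p was under 0.05 and open where it was not, with the list median as an orange bar and vertical scatter for display only. The ERK, SRF and MEF2 list lies mostly left of 0 with a median of -0.30, and the early response list mostly right with 0.56; Tox2 is drawn at its lower bound.

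Markers of other cells were low but moved with the groups. Of 14 myeloid and dendritic markers, 7 were at 0 UMIs in every library, among them Adgre1, C1qa and Siglech, and their summed level was 1.31 and 1.53 CPM in butyrate and 0.588 and 0.342 CPM in control. Of 3 tested, 2 rose and 0 fell. B cell markers summed to 8.61 and 9.67 CPM in butyrate and 6.68 and 6.31 CPM in control, nearly all of it Cd79b, with 2 of 3 tested genes higher and 1 lower. Of 4 CD4 and regulatory T cell markers tested, 3 rose and 1 fell, with sums of 26.6 and 26.0 CPM in butyrate and 17.8 and 18.1 CPM in control. Nearly all of these sums came from Ikzf4 and Zbtb7b. Cd4 itself had 33 and 40 UMIs in butyrate and 3 and 1 UMIs in control, and the gene that fell was Cd40lg. The erythroid gene Hba-a1 had 51 and 39 UMIs in butyrate and 7 and 15 in control, the 1 of 8 erythroid and platelet markers that could be tested. Of 10 CD8 T cell markers, 2 rose and 4 fell. All these marker counts are to be read against the 36.0% of all genes tested that rose and the 35.7% that fell. The part of other cells in the member levels was not tested.

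In cells with no Mki67 and no Top2a UMI, which make up 13.7 and 15.7% of thinned butyrate cells and 14.4 and 14.7% of control cells, Egr1 stood at 131 and 154 CPM in butyrate and 109 and 84.9 CPM in control. A Nr4a2 UMI was found in 5.52 and 2.95% of these cells in butyrate and 2.09 and 1.08% in control, against 3.84 and 4.29% of the other butyrate cells and 0.999 and 1.16% of the other control cells. Nr4a1, Nr4a3 and Egr2 had too few UMIs in these cells to be tested.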

How the data were processed

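The deposited files give, for each of the 10x 3′ v3.1 libraries, UMI counts of every gene in every barcode, before any choice of cells. The authors made these counts with tools that the submitters' processing notes give as Cell Ranger 4 and Seurat 4.3 on mm10, in no stated order. Neither the annotation release nor the handling of intronic reads is given in the sources used here. Gene coordinates are those of GENCODE M21 (GRCm38), in which 32158 of the 32285 gene IDs occur.

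Cells were kept by the OrdMag rule, which asks for 10% of the UMIs at the 99th percentile among the 3000 deepest barcodes and set limits of 6526 and 6202 UMIs in butyrate and 6601 and 6644 UMIs in control. They needed at least 500 genes and under 10% mitochondrial UMIs, a limit that left out 63 and 92 barcodes in butyrate and 217 and 295 in control. No cell was removed as a doublet. Summed UMIs of each library went into edgeR 4.0.16 under R 4.3.3, with TMM scaling, the filterByExpr filter and a robust quasi-likelihood fit on group alone. Standard errors are the size of the log2 fold change over the root of its F statistic. For shares, cells were thinned to 8000 UMIs, intervals were Clopper-Pearson (scipy 1.17.1), and the test was an exact permutation over libraries. The fitting step was tested on simulated counts.

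The replicate numbers pair the libraries, because the library names give the same mouse for each number. Deviations from the group mean correlated at 0.132 (Spearman 0.0633) over 13487 genes between cultures of 1 mouse. The mouse was a term in an alternative fit only. Motifs were matched to letters on both strands of 8 RefSeq windows of 4 members. The promoter of Egr1 was not used here, and Egr3 had no window.

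The members and the gene lists were chosen with earlier results of these data known. All 6 members are named. From each list the 4 genes with the smallest p are named, plus 15 chosen for their known role. A gene that this rule names is not reported here. The most alike genes are the 3 with the highest mean correlation among tested genes with at least 20 CPM and a positive correlation in all 4 libraries, leaving out predicted genes and receptor segments. UMI counts of close relatives may be assigned to the wrong gene, which was not resolved.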

Additional observations from a re-analysis of the deposited data

Results flagged for a closer look

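Nr4a2 stood at 3.95 and 3.78 CPM in the butyrate libraries among barcodes of 1 to 100 UMIs, which the comparisons do not use, against 1.07 and 1.09 CPM in control. These levels rest on 20 and 15 UMIs in butyrate and 5 and 6 in control.

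The share of cells with an Egr1 UMI moved in opposite directions in the 2 pairs of cultures. The butyrate culture was lower by 3.20 points in the pair of replicate 1 (a difference of -3.20) and higher by 4.93 points in that of replicate 2. The share of cells with an Egr2 UMI did the same, at -0.135 points for replicate 1 and 0.217 points for replicate 2. With 1 culture per group in each pair, neither difference between pairs was tested.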

How the results depend on the processing

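Nr4a1, Nr4a2 and Nr4a3 kept their direction in every alternative in which they could be tested, at log2 fold changes of 0.85 to 1.72, 1.57 to 2.07 and 0.66 to 1.27. They kept their calls in each of these that used all 4 libraries. In a fit without 1 library, the lone library of its group was assumed to vary as the other pair did. Leaving out each library gave 0.21 to 0.68 for Egr1, 0.55 to 0.99 for Egr2 and -0.69 to -0.16 for Egr3, with 3 to 5 members called higher and 0 to 1 lower, and 1 to 2 genes of the ERK, SRF and MEF2 list higher. With the mouse as a replicate block, 4958 genes were called higher and 4931 lower, against 4861 and 4818 without it, Egr1 was at 0.45, and the block changed no call of a member. With cells thinned to 8000 UMIs, Egr1 was at 0.55 and Egr2 at 0.31. In DESeq2, Egr2 was at 0.78 and 3 Nr4a-linked genes fell. Library totals alone put Egr3 at -0.60 and 1 member lower, with 3395 genes higher and 6710 lower over all genes. They called 0 genes higher in the ERK, SRF and MEF2 list, 3 in the calcineurin and NFAT list and 0 among partners, and 11 early response genes lower. With no filter, 1 gene of the ERK, SRF and MEF2 list was higher. Under a mitochondrial limit of 5%, Egr3 was at 0.16, 1 gene of the ERK, SRF and MEF2 list and 2 partners were higher, and 3 Nr4a-linked genes were lower. In cells with no Mki67 and no Top2a UMI, Egr1 was at 0.68, 2187 genes were called higher and 2126 lower, 2 members were higher, 1 gene of the ERK, SRF and MEF2 list was higher and 9 lower, and 2 partners, 4 Egr-linked and 4 Nr4a-linked genes were higher. Fewer genes could be tested there, 9252 of 13487.

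Differences in shares of cells changed sign for Egr1 without thinning (-1.74 points) and within the pair of replicate 1 (-3.20), for Egr2 within that pair (-0.135), and for Nr4a3 in cells with no Mki67 and no Top2a UMI (-0.00588). For cells with at least 2 UMIs they were -0.0303 for Nr4a1, -0.00520 for Egr2 and 0.00342 for Egr3. The cause of these changes was not tested. The Egr1 difference between cells with and without a Tcf7 UMI, an analysis added after the data were seen, was 0.96 to 1.38 without each library in turn, 1.34 with library totals alone and 0.58 without thinning. All members but Egr1 had under 350 UMIs per library, which limits their precision.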

Other observations

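Barcodes left out for a mitochondrial share of 10% or more held Egr1 at 107 and 121 CPM in butyrate and 173 and 129 CPM in control. In the kept cells, on the same scale without TMM, Egr1 was at 91.2 and 101 CPM in butyrate and 94.5 and 68.9 CPM in control. The left-out barcodes numbered 63 and 92 in butyrate and 217 and 295 in control. They held Nr4a2 at 9.59 and 4.79 CPM in butyrate (6 and 4 UMIs) and 6.04 and 3.57 CPM in control (13 and 11 UMIs). The groups thus overlapped there, on few UMIs. In the kept cells Nr4a2 was at 5.03 and 4.73 CPM in butyrate and 1.47 and 1.57 CPM in control. This difference between barcode classes was not tested.

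Egr4, the remaining member of the Egr family, had 1 and 3 UMIs in butyrate and 0 and 0 in control, too few to test.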
